A study of Mus musculus with 2 samples.

Results

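Solute carriers are membrane proteins that carry nutrients, ions, metals, vitamins and metabolites across the plasma membrane and the membranes of organelles, without splitting ATP themselves. Their mouse genes are named Slc with a family number. A CD4+ T cell that divides depends on them for amino acids, sugars, vitamins and metals, and lysosomal members return the products of degradation to the cytosol. Lamtor1 is a subunit of Ragulator, the complex that holds the kinase complex mTORC1 at the lysosome.

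The genes described here are the measured Slc genes outside a set of well-known amino acid, glucose and lactate transporters. The arrays carried 344 gene names that start with Slc and a digit. Of these, 15 were set apart (Slc1a4, Slc1a5, Slc2a1, Slc2a3, Slc3a2, Slc6a9, Slc7a1, Slc7a5, Slc7a6, Slc7a11, Slc16a1, Slc16a3, Slc38a1, Slc38a2 and Slc43a1). Of the other 329 names, 168 (51.1%) had a probe well above background, as the scanner software flags it, on both arrays in the RNA of at least 1 genotype. The genes were thus chosen by that measured flag and by name, not by their ratio. They are the genes described below, out of 14900 genes measured by the same standard. The remaining 161 names were below that standard and have no value here. Of the 168, 141 passed in both RNAs, 20 in WT but not in KO, and 7 in KO but not in WT. A gene of the last 2 kinds was kept because of the RNA in which it was brighter. The brightest probe stood for each gene.

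RNA of Lamtor1-deficient CD4+ T cells (KO) was compared with RNA of wild-type CD4+ T cells (WT), both of C57BL/6J mice. For both genotypes the labels describe splenic naive T cells, CD4+CD62L+ by magnetic sorting, and a culture of 5 days on plate-coated anti-CD3 with anti-CD28, rhTGFβ (1 ng/ml) and IL-2 (50 ng/ml). The labels also call the extracted RNA that of naive cells, so whether it was taken before or after the culture is unclear. How the knockout was made, the age of the mice and whether animals were pooled are not given in the sources used here. RNA of a single extract per genotype was hybridised to 2 two-colour arrays, one with KO in Cy5 and one with KO in Cy3, so the arrays repeat the labelling and hybridisation and not the biology. No test was possible and no p-value is given. A log2 ratio is KO over WT, the mean of the 2 arrays, and the ± beside it is the technical SD of the 2 arrays, which holds no spread between animals or cultures. A gene is called higher or lower where it was at least 2-fold apart in the same direction on both arrays.

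Lamtor1 itself stood at -1.95 ± 0.03, a 3.86-fold lower signal in KO. Markers of other cells differed between the extracts. Of 8 measured CD8 T and NK cell markers (of 10 listed) 5 were called higher, with a range from -0.55 to 2.14. Of 8 measured myeloid markers (of 11) 3 were called higher, with a range from -0.66 to 3.96 at S100a9. Of all 14900 measured genes, 2.46% were called higher and 6.88% lower. Among the markers called higher, Klra8, Klrb1c, Tyrobp, Lyz1 and S100a8 were not above background in WT on either array, and S100a9 on 1 only. These genes were kept because of KO, the RNA in which they were brighter, so the filter favoured their calls. The probe of the myeloid marker Itgam (0.70) is among the CA-repeat probes described below. Of 10 T cell markers 3 were called lower, Trat1, Cd4 and Cd5, and the median was -0.64, with a range from -2.69 to 0.16. On both arrays 6 of the 10 lay below 0, and 2 lay above it, Cd3e at 0.09 and Lck at 0.16. Of 7 B cell markers 2 were measured and neither was called. Of 10 erythroid markers 1 was measured, Hbb-b1, called lower at -1.31 and not above background in KO on either array. In bulk RNA, fewer cells of a type and less RNA per cell cannot be told apart, and the part that other cells play in any ratio below was not tested. The macrophage metal transporter gene Slc11a1 and the erythrocyte anion exchanger gene Slc4a1 were not measured.

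Most of the solute carrier genes differed little between the extracts. Of the 168 genes, 3 were called higher (1.79%) and 5 lower (2.98%), against 2.46% and 6.88% of all 14900 measured genes. In groups as small as the transporter classes below, those shares of all genes amount to few genes. The genes called higher were Slc34a3, Slc17a9 and Slc39a8. Those called lower were Slc19a2, Slc7a3, Slc4a11, Slc2a8 and Slc39a6. The median of the 168 ratios was -0.02 (quartiles -0.36 and 0.21), and that of all genes was -0.02 (quartiles -0.37 and 0.25). Of the 168 ratios, 118 (70.2%) were smaller than 0.5 in size, and so were 68.8% of those of all genes. On both arrays 62 genes lay above 0 and 78 below it, and the sign of the other 28 differed between the arrays.

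The transporters set apart gave another picture, and they had been set apart with such results known. Of the 13 that were measured, 7 were called lower and 0 higher, and their ratios ran from -2.44 to 0.41. With them included, 12 of 181 measured Slc genes (6.63%) were called lower and 3 (1.66%) higher. Of all 14900 measured genes 6.88% were called lower and 2.46% higher, so the share called lower in the full Slc set was near that of all genes.

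The 2 arrays agreed closely on these genes. The median technical SD was 0.11, the largest was 0.47 (Slc41a3), and Pearson's r between the arrays was 0.917 and Spearman's rho 0.879 across the 168 genes. These coefficients describe genes measured on shared RNA extracts and carry no test. In 28 genes the sign differed between the arrays, and in 0 of them the ratio reached 2-fold both ways.

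**Figure D1:**
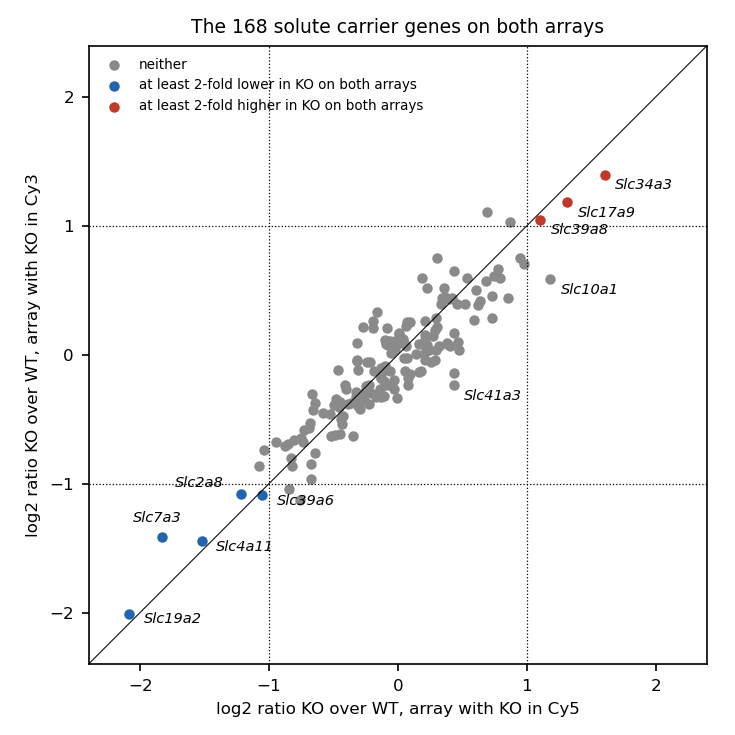
Log2 ratio KO over WT of each of the 168 genes on the array with KO in Cy5 (horizontal axis) and on the array where KO was in Cy3 (vertical axis), with the 2-fold limits dotted. The 3 genes called higher (red) and the 5 called lower (blue) lie along the diagonal, and Slc10a1 passes 2-fold on 1 array only (1.18 and 0.58).

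Some probes must be known by their sequence before their values can be read. The brightest probe of 8 genes shares a run of at least 20 bases with a probe of another gene, on the same or the opposite strand, and none of the 8 is a gene called higher or lower. Stretches of 30 bases of 4 of these 60-base probes are shown because they carry repeat sequence. They are written 5′ to 3′ as deposited, and capitals mark the bases within runs shared with probes of other genes. The probes lie at chr12:82299156-82299215 (Slc8a3), chr9:78385399-78385458 (Slc17a5), chr8:75005924-75005983 (Slc35e1) and chr12:82056539-82056598 (Slc10a1), all on the minus strand of build mm9 as the files give them.
Slc8a3: CACACACACACACACACACACACACACACA
Slc17a5: atgGACACACACACACACACACACACTGAT
Slc35e1: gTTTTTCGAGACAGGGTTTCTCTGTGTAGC
Slc10a1: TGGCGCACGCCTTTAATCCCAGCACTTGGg
The first pair holds CA dinucleotide repeats of 30 and 22 bases. The stretches of Slc35e1 and Slc10a1 match the B1 family of short interspersed repeats, which occurs in many mouse transcripts.

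Averaged over the arrays, the ratios of the CA-repeat probes lay among those of other CA-repeat probes. Slc8a3, a plasma membrane sodium-calcium exchanger gene of nerve and muscle, stood at 0.68 and 0.57 on the 2 arrays. Its probe shared a run with probes of 76 other names, 75 of which lay above 0 on both arrays, with a median of 0.67 and a range from 0.19 to 0.74. By array their medians were 1.04 with KO in Cy5 and 0.29 in the swap, so they parted further between dyes than the Slc8a3 probe did. A second Slc8a3 probe without the repeat was not above background (-0.04). Slc17a5, the gene of sialin, which exports sialic acid from lysosomes, stood at 0.75 and 0.61 on its repeat probe. The 75 probes that share its run had a median of 0.67 as well, and the second Slc17a5 probe, above background in both RNAs, stood at 0.15. Both genes rank among the brightest of their classes by these repeat probes, and how much of either signal came from the gene's own transcript was not tested.

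Among the probes with B1-like stretches, that of Slc35e1 disagreed with the other probe of its gene. Slc35e1, an orphan member of the nucleotide sugar transporter family, read 0.73 and 0.46 on the repeat probe but -0.37 and -0.61 on its other probe, which shares no run. The 8 other probes with its run ranged from 0.67 to 0.92, all above 0 on both arrays. Slc10a1, the bile acid uptake transporter gene of the liver, had the brightest probe of the 168 genes, with ratios of 1.18 and 0.58. Its background-subtracted intensities were 222973 in KO and 64288 in WT with KO in Cy5, and 68443 in KO and 212213 in WT with KO in Cy3, so before normalisation the Cy5 channel was the brighter on both arrays. The second Slc10a1 probe was not above background in either RNA (0.13 and -0.00). The probes of 3 other genes shared its run, all on the opposite strand, with ratios from 0.28 to 0.45.

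**Figure D2:**
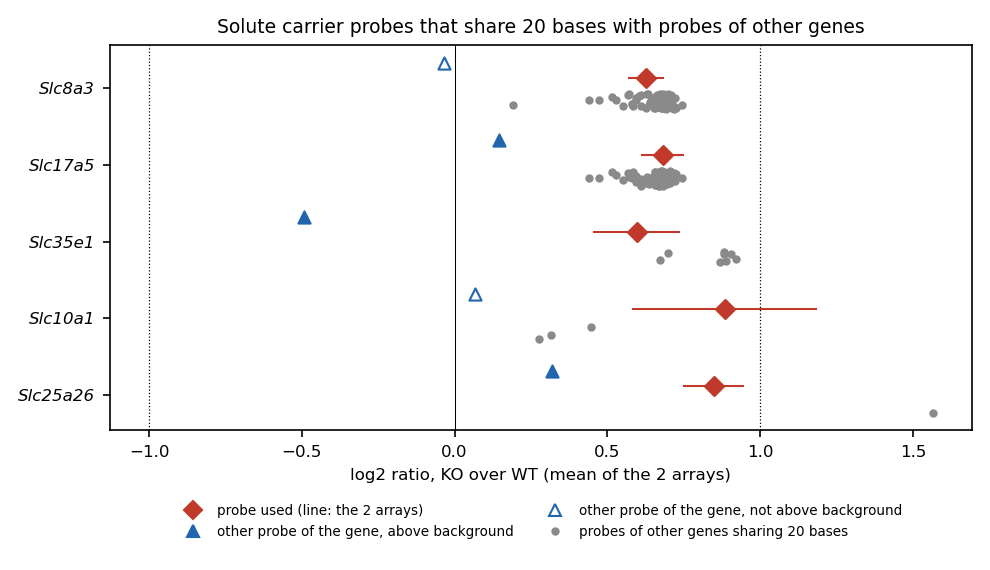
Log2 ratio KO over WT (horizontal axis) of 5 genes whose probe shares 20 bases with probes of other genes: the probe used (diamond, its line joins the 2 arrays), the gene's other probe (triangle, open where not above background) and the other genes' probes (grey). For Slc8a3 and Slc17a5 the probe used lies within the grey cloud around 0.67, and for Slc35e1 the other probe lies at -0.49, on the other side of 0.

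Slc25a26 is a different case. It encodes the carrier that brings S-adenosylmethionine, the methyl donor, into mitochondria. Its probe stood at 0.94 and 0.75 and its other probe at 0.44 and 0.19. The probe shares its run with a single probe, of Lrig1, on the opposite strand, and that probe read 1.78 and 1.35. Without the 5 genes left with no other measured probe free of such runs, and with the next probe for the rest, 163 genes gave the same counts, 3 higher and 5 lower, with a median of -0.04. More widely, 27 of the 168 genes had another measured probe, and 18 of those 28 probes lay on the same side of 0 on both arrays as the probe used. Slc25a37, for one, read -0.76 on the brighter probe and -0.22 on the dimmer.

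The thiamine transporter gene Slc19a2 differed most of the 168. It encodes the plasma membrane carrier of vitamin B1, the precursor of the cofactor of pyruvate dehydrogenase and transketolase, and its probe lies at chr1:166194646-166194705 (mm9). Its normalised KO signal (log2 intensity) was 7.61 on the array with KO in Cy5 and 7.68 on the dye-swapped one, and its WT signal was 9.70 and 9.69. KO lay below WT on both arrays with a wide gap, and the ratio was -2.05 ± 0.05, 4.14-fold lower. It was the 1 gene of the 168 past 3-fold on both arrays.

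Other vitamin carriers did not share that size. Slc5a6, which takes up biotin, pantothenate and lipoate, was the gene nearest to a call on the higher side, at 0.87 and 1.03. Slc46a1, the proton-coupled folate transporter, stood at 0.72 ± 0.08, while the reduced folate carrier gene Slc19a1 stood at -0.48 ± 0.26, and at 0.15 and -0.22 on a dimmer second probe. Slc23a2, an ascorbate transporter gene, stood at -0.25 ± 0.11. Nucleoside and choline carriers made up most of the rest of that class. The equilibrative nucleoside transporter gene Slc29a1 stood at -0.56 ± 0.10, the concentrative one Slc28a2 at -0.63 ± 0.09, and the purine base transporter gene Slc43a3 at -0.79 ± 0.12. The Slc28a2 probe shares a run with the related gene Gm14085, and 2 measured probes under that name both stood at -0.37. Slc44a2, a choline transporter-like gene and the brightest of the class, stood at 0.21 ± 0.09. Over the 16 measured genes of the class (of 26 on the arrays) 1 was called lower and 0 higher, and the median was -0.10. It stood at 0.00 where the dimmest measured probe stood for each gene, and at -0.36 over the 14 genes above background in both RNAs.

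Among the 16 measured amino acid and peptide transporter genes (of 55 on the arrays), 1 was called, and the median was -0.12. Over the 12 genes above background in both RNAs the median was -0.001. With median centring it was -0.22, or 0.15 above that of all genes. The gene called was Slc7a3, a cationic amino acid transporter of arginine and lysine (chrX:98274644-98274703). Its KO signal was 6.62 and 7.08 and its WT signal 8.45 and 8.49, in the same order of arrays. KO was below WT on both arrays, and the ratio of -1.62 ± 0.29 (3.08-fold lower) had a wider spread than the median of 0.11. Slc6a13, a GABA and taurine transporter gene, stood just outside the limit at -0.85 and -1.04. It was not above background in KO on either array, and the bound on its ratio was at least 1.93-fold lower. The taurine transporter gene Slc6a6 stood at 0.39 ± 0.29 and the leucine-preferring Slc43a2 at 0.44 ± 0.11.

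Lysosomal amino acid carriers include one that binds Ragulator. Slc38a9, whose protein binds Ragulator and signals lysosomal arginine to mTORC1, stood at -0.11 and -0.21. Slc36a1, a proton-coupled amino acid exporter of the lysosome, stood at 0.01 and 0.09. Slc15a4, a histidine and peptide carrier of endolysosomes, stood at 0.08 and -0.18, with signs that differed between the arrays. Slc38a7, which exports glutamine from lysosomes, stood at 0.59 and 0.27.

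Slc17a9 was the brightest of the genes called. It encodes the vesicular nucleotide transporter, which loads ATP into secretory vesicles and lysosomes, and its probe lies at chr2:180476906-180476965. Its KO signal was 11.88 and 11.87 and its WT signal 10.57 and 10.68, with KO above WT on both arrays. The ratio was 1.25 ± 0.09, or 2.38-fold higher. With arrays centred on their median in place of loess it was 0.66 and the call was lost. The other measured member of its class was Slc17a5, described above, of 12 names on the arrays.

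A list of 19 measured genes with products described at lysosomes or endosomes was drawn up after the values were seen. Of these 1 was called higher (Slc17a9) and 1 lower (Slc2a8), 8 lay above 0 and 9 below it on both arrays, and the median was -0.05; it turned above 0 with the software's processed signals, the series matrix values and the requirement of signal in both RNAs. The genes with larger ratios went both ways. Slc46a3, at -1.04 and -0.73, and Slc30a4, at -1.08 and -0.86, passed 2-fold on 1 array each, while Slc26a11, a sulphate transporter gene, stood at 0.85 and 0.44. The haem transporter gene Slc48a1 stood at -0.15 ± 0.04.

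**Figure D3:**
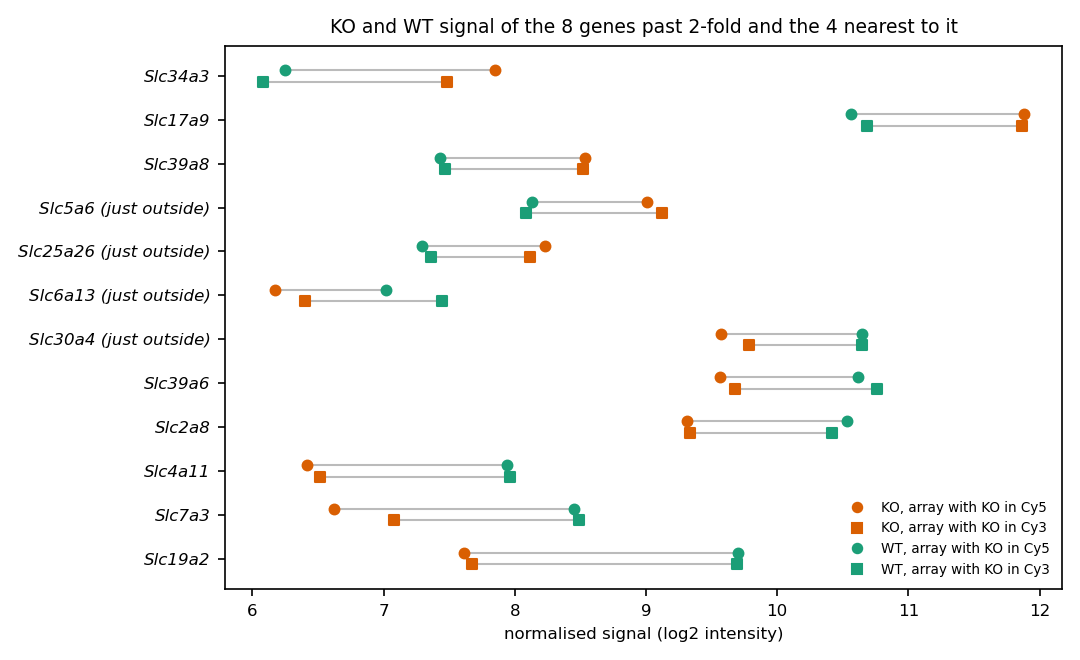
Normalised signal (log2 intensity, horizontal axis) of KO (orange) and WT (green) by array, circles where KO was in Cy5 and squares where it was in Cy3, for the 8 genes called and the 4 nearest to a call. In each of the 12 genes the KO and WT points of both arrays lie apart without overlap, which follows from how these genes were chosen. Slc17a9 is brightest, with KO at 11.88 and 11.87.

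Metal transporters held 1 call in each direction, both of them zinc importers. Slc39a8 encodes ZIP8, which brings zinc and manganese into cells and releases zinc from lysosomes of T cells (chr3:135551169-135551228). Its KO signal was 8.53 and 8.52 and its WT signal 7.43 and 7.47. KO lay above WT by nearly the same distance on both arrays, and the ratio was 1.08 ± 0.04, 2.11-fold higher. Slc39a6 encodes ZIP6, a zinc importer of the plasma membrane. Its KO signal was 9.57 and 9.68 and its WT signal 10.62 and 10.76, so KO lay below WT on both arrays, and the ratio was -1.07 ± 0.02, 2.10-fold lower. Both stood close to the 2-fold limit, and with median centring neither was called on both arrays, with means of 0.78 and -1.61.

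The other zinc transporters varied less. The 11 measured Slc39 genes, which raise cytosolic zinc, had a median of -0.03 with 5 above and 5 below 0 on both arrays. The 7 measured Slc30 genes, which lower it, had a median of -0.12 with 2 above and 5 below, and 0 were called. Slc30a4, a zinc exporter into vesicles, lay just outside the limit at -0.97 ± 0.15, and Slc30a1, the zinc exporter of the plasma membrane, stood at 0.30 and 0.75. The brightest of the family pair were Slc39a7 (-0.03 ± 0.34, signs differing), Slc39a1 (-0.37 ± 0.01) and Slc39a11 (-0.36 ± 0.09). For copper, the importer gene Slc31a1 stood at -0.57 ± 0.08 and its relative Slc31a2 at 0.51 ± 0.16. For iron, Slc11a2, which moves iron out of endosomes, stood at -0.54 ± 0.17, and at -0.06 on a dimmer second probe. Over all 24 measured metal transporter genes (of 33) the median was -0.11.

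Some genes that bind, store or take up the same metals held large ratios. Of 17 measured genes on a list of metal handling partners, 5 were called higher (29.4%) and 1 lower (5.88%), against 2.46% and 6.88% of all genes. Without Ank, a pyrophosphate exporter gene (1.66 ± 0.05) that the list held although it handles no metal, 4 of 16 (25%) were called higher, and the 11 genes not called lay between -0.08 and 0.72. Mt1 and Mt2, the zinc-binding metallothioneins, stood at 3.22 and 2.77 and at 2.46 and 2.48 on the 2 arrays. Trf, the iron carrier transferrin, stood at 2.74 ± 0.06 and Ftl1, the ferritin light chain, at 1.75 ± 0.07. Tfrc, the transferrin receptor, was called lower at -1.20 ± 0.01. Mtf1, the zinc-sensing transcription factor, stood at -0.08 ± 0.07, and the ferritin heavy chain gene Fth1 at 0.04 ± 0.09.

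**Figure D4:**
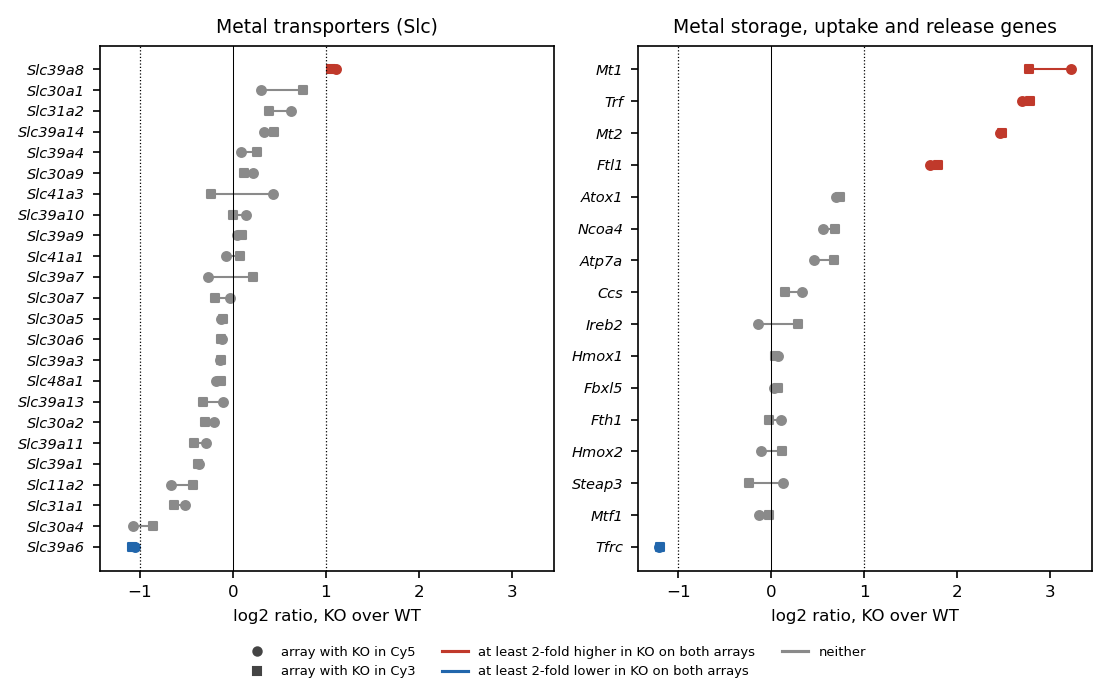
Log2 ratio KO over WT (horizontal axis) by array, circles where KO was in Cy5 and squares where it was in Cy3, for the 24 metal transporter genes (left) and for the metal handling partners without Ank (right). Slc39a8 and Slc39a6 stand at the dotted 2-fold limits, while Mt1, Mt2, Trf and Ftl1 lie between 1.70 and 3.22.

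Metallothionein genes and Slc30a1 are textbook targets of Mtf1, which binds metal response elements, so the promoters of the metal genes were searched for the element's core in the form TGCACNC on both strands. Of 22 promoter windows of 19 metal transporter genes in the RefSeq table (GRCm38.p6), 6 windows (27.3%), of 6 genes, held it in the 250 bases before the start site. Of 32851 windows of all genes of that table, not of the measured genes alone, 10.4% held it. Slc39a6, Slc39a4, Slc39a14, Slc11a2 and Slc48a1 had no window there and were not searched. The matches of Mt1, Mt2, Slc30a1 and Slc39a8 are shown because these genes carry the largest ratios or the known element. Each line gives 30 bases 5′ to 3′ on the gene's strand, with the match in capitals, written as its reverse complement where it lies on the other strand.
Mt1: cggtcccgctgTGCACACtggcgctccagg
Mt2: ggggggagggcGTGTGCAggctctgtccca
Slc30a1: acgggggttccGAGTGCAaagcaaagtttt
Slc39a8: ttatctctaaaGGGTGCAgggcctgatctc
These stretches lie at chr8:94179055-94179084, chr8:94172557-94172586, chr1:191906727-191906756 and chr3:135825627-135825656 in GRCm38, all on the plus strand. Mt2 held a second match. The other metal transporters with a match, Slc31a2, Slc39a11, Slc39a3 and Slc41a3, stood at 0.51, -0.36, -0.13 and 0.10, so a match was found beside ratios of either sign. A match is a description of letters and not a binding site.

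Ion and pH transporters also held 1 call in each direction, and both probes were dim. Slc34a3 encodes a sodium-phosphate cotransporter known from the kidney (chr2:25084438-25084497). Its KO signal was 7.85 and 7.48, and its WT signal, 6.25 and 6.08, was not above background on either array. The ratio was 1.60 and 1.40 on the arrays, and as a bound it was at least 2.79-fold higher in KO. Slc4a11, a member of the bicarbonate transporter family (chr2:130509952-130510011), had a KO signal of 6.42 and 6.52, above background on 1 array, and a WT signal of 7.94 and 7.96. KO lay below WT on both arrays, and the ratio was -1.48 ± 0.06, or 2.79-fold lower.

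The ubiquitous phosphate importers did not follow Slc34a3. Slc20a1, one of the brightest ion transporters, stood at 0.01 ± 0.14, and Slc20a2 at 0.01 ± 0.15. The sodium-proton exchanger gene Slc9a8 stood at 0.29 ± 0.01. Of the anion exchangers of family Slc26, 4 of 5 measured genes lay above 0 on both arrays and 0 were called. Slc26a1 (0.90 ± 0.29), Slc26a6 (0.84 ± 0.19, with 0.41 on a dimmer second probe) and Slc26a11 (0.65 ± 0.29) were the highest, and Slc26a10 stood at -0.49 ± 0.20. Slc26a2 (0.24 ± 0.04) was not above background in WT on either array, so it was kept because of KO, where it was brighter. Slc26a10 was above background in KO on 1 array only, so it was kept because of WT. The median of the family, 0.65, exceeded that of all genes under each of 14 settings (by 0.43 to 1.03), though the family was singled out after its values were seen. Over the 28 measured genes of the class (of 56) the median was 0.09, which turned to -0.17 with median centring, where the median of all genes moved to -0.37.

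Sugar transporters held 1 call. Slc2a8 encodes GLUT8, a hexose transporter of endosomes and lysosomes (chr2:32828509-32828568). Its KO signal was 9.32 and 9.34 and its WT signal 10.53 and 10.41. KO lay below WT on both arrays, and the ratio was -1.15 ± 0.10, 2.21-fold lower. The other measured members of family Slc2 were also below 0 on both arrays. Slc2a9, a urate and hexose transporter gene, stood at -0.81 ± 0.02, Slc2a12 at -0.35 ± 0.06, the insulin-responsive glucose transporter gene Slc2a4 at -0.32 ± 0.01 (not above background in KO, at least 1.22-fold lower) and Slc2a6 at -0.21 ± 0.14. The median of these 5 was -0.35. It lay below that of all genes under each of 14 settings, by 0.27 at the least, and the family, too, was picked out after its values were seen. The set-apart Slc2a1 and Slc2a3 stood at -1.80 and -1.70.

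Family Slc37, the sugar phosphate exchanger family by name, went both ways. Slc37a4, the glucose-6-phosphate transporter gene of the endoplasmic reticulum, stood at -0.66 ± 0.11. Slc37a3, one of the genes on the lysosomal and endosomal list above, stood at 0.56 ± 0.04. Over the 13 measured genes of the sugar class (of 26) the median was -0.31, against -0.02 for all genes. The gene at the median, Slc37a2, was not above background in KO on either array, nor was Slc2a4, so both were kept because of WT. Over the 11 genes above background in both RNAs the class median was -0.21, against -0.004 for all genes. With median centring it was -0.32 against -0.37 for all genes, so under that scaling the class lay 0.06 above the rest.

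Mitochondrial carriers were the largest class, with 33 of 42 genes measured, and 0 were called in either direction. Of all measured genes 2.46% were called higher and 6.88% lower, which amounts to few genes in a class of this size. On both arrays 19 lay below 0 and 9 above. The median was -0.18, and it stayed 0.12 to 0.20 below that of all genes under 14 settings. The adenine nucleotide carriers Slc25a4 and Slc25a5, which exchange ADP and ATP and were among the brightest, stood at -0.25 ± 0.00 and -0.51 ± 0.19, and the phosphate carrier gene Slc25a3 stood at -0.02 ± 0.17. Several low ratios belonged to functional pairs, which were put together after the values were seen. The mitoferrins Slc25a28 and Slc25a37, which import iron for haem and iron-sulphur clusters, stood at -0.82 ± 0.20 and -0.76 ± 0.12. The aspartate-glutamate carriers of the malate-aspartate shuttle, Slc25a12 and Slc25a13, stood at -0.84 ± 0.03 and -0.60 ± 0.11. The citrate carrier gene Slc25a1, which exports citrate for lipid synthesis, stood at -0.70 ± 0.09.

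On the other side of 0 stood Slc25a38, which supplies glycine for haem synthesis, at 0.70 ± 0.14, and Slc25a26 at 0.85 ± 0.14 on the probe described above. The oxoglutarate-malate carrier gene Slc25a11, the partner of the aspartate-glutamate carriers in the shuttle, stood at 0.01 ± 0.05. The carnitine-acylcarnitine carrier gene Slc25a20 stood at 0.26 ± 0.06.

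**Figure D5:**
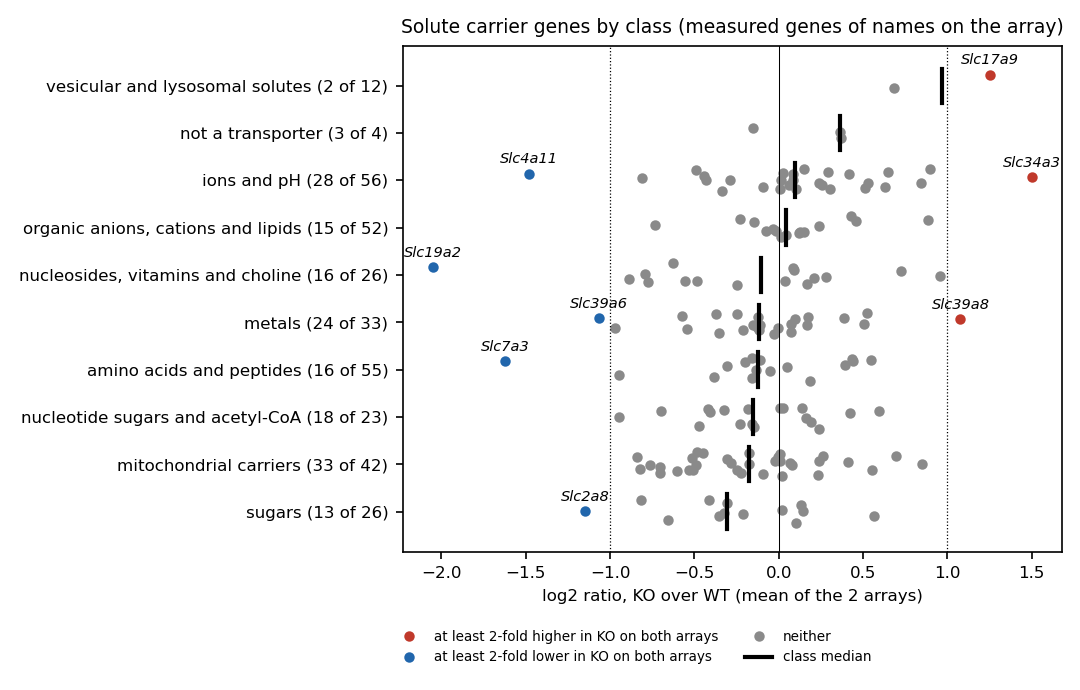
Mean log2 ratio KO over WT (horizontal axis) of each measured gene by transporter class, with the number measured of the number on the arrays, the class median (bar) and the 2-fold limits (dotted). Class medians run from -0.31 for sugars to 0.37 for the 3 genes that are not transporters, apart from 0.97 over the 2 vesicular genes. The mitochondrial carriers hold no called gene, where 2.46% of all measured genes were called higher and 6.88% lower.

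Nucleotide sugar carriers feed glycosylation in the Golgi apparatus. Of the 18 measured genes of that class (of 23) 0 were called and the median was -0.15. Over the 16 genes above background in both RNAs it was -0.07. The bright Slc35b1, Slc35b2 (a carrier of the sulphate donor PAPS) and Slc35c1 (the GDP-fucose carrier) stood at 0.16 ± 0.13, -0.23 ± 0.14 and 0.00 ± 0.28. Slc35f2 was the lowest, at -0.76 and -1.13. The class of organic anion, cation and lipid carriers had 15 of 52 genes measured and 0 called. Its median was 0.04, or 0.07 above that of all genes. With median centring it was -0.01, or 0.37 above that of all genes. Apart from Slc10a1, its brightest genes were Slc16a6 (-0.23 ± 0.01) and Slc10a3 (-0.02 ± 0.05). The carnitine transporter gene Slc22a5 stood at 0.43 ± 0.01.

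An Slc name without a transporter was carried by 3 measured genes: Slc4a1ap (-0.15 ± 0.04), Slc7a6os (0.37 ± 0.04) and the scaffold gene Slc9a3r1 (0.37 ± 0.21). Their names derive from a partner or a neighbouring gene. Newer nomenclature also moved names in the other direction. With current RefSeq symbols 15 further genes with older names on the array joined, and the 183 genes gave 4 called higher and 5 lower. The added call was Slc9a7, a sodium-proton exchanger gene of the Golgi apparatus. A probe that the files name 6330509M05Rik, a synonym of Slc9a7 in the RefSeq table, read 1.41 and 1.28, while the probe the files name Slc9a7 read 0.40 and 0.43 and was not above background in WT.

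Few calls fell on transporters outside the Slc names. Of 32 measured genes that belong to solute carrier families under other symbols (of 43 listed), 1 was called higher (3.12%) and 1 lower (3.12%), and the median was -0.06. The first was Spns1, which exports lysophospholipids from lysosomes, at 1.64 ± 0.07, and the second Mfsd2a, which takes up lysophosphatidylcholine, at -1.39 ± 0.08. Of 27 measured ATP-binding cassette transporter genes (of 50), 0 were called higher and 1 lower (3.7%), Abcb9, a peptide transporter of lysosomes, at -1.77 ± 0.01. Their median was -0.06. The shares of all genes, 2.46% higher and 6.88% lower, amount to few genes in lists of this size.

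In the promoter windows of the solute carrier genes, 250 bases before to 50 after the start site, the palindromic E-box CACGTG was found in 22 of 169 windows (13%), from 126 of the genes, against 7.15% of 32851 windows of all genes. Those 32851 windows are of all genes in the RefSeq table and not of the measured genes alone. Shares among measured genes only were not taken. The shorter ACGTG, which every CACGTG contains, was in 26% against 19.6%, and TGATGNAA was in 1.78% against 3.97%. TGCACNC was in 16.6% against 12.6%. Each was searched on both strands. The called genes had 3 windows (higher) and 2 windows (lower) in the RefSeq promoters, and the match to CACGTG was in that of Slc39a8. No link between a match and a ratio was tested.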

How the data were processed

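The deposited scanner files hold, per the file headers, each spot's mean intensity and local background intensity in both channels, uncorrected, with the software's own processed intensity and log10 ratio. The version of Agilent Feature Extraction is 10.7.3.1 per the file headers but 10.5.1.1 per the submitters' processing notes, which was not settled. Values in the deposited series matrix are log10 of Cy5 over Cy3, equal to the software's for all 44397 spots of each array within 1e-09, with a median of 0. Background flags are the software's.

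Per array there were 43020 non-control spots on 39429 probes; 43.7% to 51.7% were well above background per RNA, 206 and 214 outlier spots were left out and 0 were saturated. The number of arrays limits the precision.

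Intensities were corrected with normexp (offset 50), normalised by loess within arrays (limma 3.58.1, R 4.3.3, and version 1.17.8 of data.table), averaged over a probe's spots and turned to log2 KO over WT; the deposited intensity gave this log2 value. The script was tested on simulated data. Plots and tables used Python 3.11.15, pandas 2.3.3 and matplotlib 3.10.9. Bounds compare the mean of the brighter RNA with a floor per array (the lowest signal still well above background, or the probe's own signal if larger), after Aquantile normalisation between channels. Classes follow the family number, with exceptions by gene. Probe positions are mm9 as in the files; exon or UTR placement was not analysed here. Of the 168 names, 166 were matched by accession to RefSeq genes of GRCm38.p6, and 1 had a newer symbol (Slc24a6, now Slc8b1).

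The genes, classes and lists were chosen with earlier results of these data known. Genes were named where called, among the 3 brightest of a class, nearest to the limit, or with a bound past 2-fold; others named were chosen after their values were seen, as were the short functional groups. Alternatives covered background correction, normalisation, filter, probe choice, single arrays, names and the size limit.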

Additional observations from a re-analysis of the deposited data

How the results depend on the processing

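The main values were 3 genes called higher, 5 lower and a median of -0.02, where 2.46% of all genes were called higher and 6.88% lower. With a normexp offset of 1 the values were 7, 11 and 0.0193, where 4.09% of all genes were called higher and 9.4% lower. The software's processed signals and the series matrix values each gave 13, 17 and 0.0353 for the 168 genes. Of all genes, 5.85% were then called higher and 10.9% lower. With arrays centred on their median in place of loess, 1 gene was called higher (Slc34a3) and 4 lower, and the median was -0.31, which is 0.06 above that of all genes (-0.37). Under that scaling 0.752% of all genes were called higher and 5.91% lower. The array with KO in Cy5 alone gave a median of -0.0715, and that with KO in Cy3 alone gave 5 higher and a median of -0.0545. On the latter array 2.88% of all genes were at least 2-fold higher. The median was 0.00459 with a stricter filter (above background in both RNAs, which drops Slc34a3 and Slc4a11), -0.00629 with current RefSeq symbols, and -0.0363 without probes that share 20 bases with other genes, an alternative chosen after seeing the data. At 1.5-fold 10 of the 168 genes (5.95%) were higher and 20 (11.9%) lower, against 6.78% and 13.5% of all genes, and at 3-fold 0 were higher and 1 (0.595%) lower, against 0.926% and 2.88%. The cause of these shifts was not tested. The 8 called genes remained called without background subtraction, with the offset of 1 and with the software's signals or the deposited matrix. Larger shares of all genes were called under each of these settings than under the main one, so they were a weak check on the calls. Each called gene has 1 probe and passed on both arrays by definition, so probe choice, names, the lighter filter and single arrays could not end a call. Dim probes limit Slc34a3, Slc4a11 and Slc6a13. No paired analysis was possible because each genotype had a single RNA extract.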
